A study of Ovis aries with 14 samples.

Results

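The lungs of 6 preterm lambs that had been born and given respiratory support were compared with the lungs of 6 fetal lambs that had not, by counting RNA per gene in the right lower lobe. These 12 of the 14 libraries of the series are those whose sample titles name 1 of these 4 groups. The supported side pools 3 lambs on invasive mechanical ventilation (IMV, through a tube in the airway) and 3 lambs on noninvasive respiratory support (NRS, through a mask). Support lasted 3 days, and all 6 of these lambs carry the age label gd134, where gd stands for gestational day. The fetal side pools 3 untreated fetuses near the age of the start of support (fetal start, gd127, gd128 and gd131) and 3 near the age of its end (fetal end, gd135, gd134 and gd136). The other 2 libraries, from untreated lambs at gd150 (term), only helped to estimate the spread between animals and are given as a reference level. The labels name no strain, sex or other drug for any group, and no animal gave more than 1 library.

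Before birth the lung is filled with liquid that its epithelium secretes, and gas exchange takes place in the placenta. At birth the liquid is absorbed, air enters, blood flow through the lung rises and the epithelium has to keep the airspaces open with surfactant. In a preterm lamb this change comes while the airspaces are still simple sacs, and ventilated preterm lambs are used as a model of the chronic lung disease of infants born early. Setting both kinds of support against both fetal ages asks how the mean of the 2 kinds of support differs from the unborn lung. It has 6 animals a side instead of 3. The series has no group of preterm lambs born and left without support. Effects of birth and of support therefore cannot be told apart, and "with support" below stands for both together.

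The deposited table names genes only by Ensembl identifier and does not pair identifiers with gene names. Genes are therefore described by how they behaved across animals, and 4 of them by identifier, with no statement on their function or position. Markers of lung cell types could not be looked up for the same reason, so the tissue label was not checked against them. The RNA is from whole tissue, in which fewer cells of a type and less RNA per cell cannot be told apart.

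The 12 libraries were close to each other in size and make-up. Totals ran from 23267448 to 31586235 counts on the supported side and from 24817865 to 28194734 on the fetal side. At an equal depth of 23267448 counts, 19310 ± 262 genes had at least 1 count in supported lungs and 19232 ± 289 in fetal lungs (SD, n = 6 each, exact two-sided permutation p = 0.628, adjusted 0.628 over 2 such tests). The 100 genes with the most counts held 23.7% ± 1.11 of all counts in supported and 24.6% ± 1.2 in fetal lungs (SD, n = 6 each, exact two-sided permutation p = 0.195, adjusted 0.390). Without fetal end replicate 2 the second difference reached an unadjusted exact permutation p of 0.0411, and the smallest p that 6 against 6 animals allow is 0.00216. The first principal component of these 12 libraries held 24% of the variance of log2 CPM, where CPM is counts-per-million of a library's total after TMM scaling. Supported libraries scored from 25.4 to 40 on it and fetal libraries from -61.8 to -15.0, so the 2 sides did not overlap.

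Of 17069 genes tested, 982 rose and 754 fell in supported lungs against fetal lungs (quasi-likelihood test of edgeR, with p adjusted by Benjamini-Hochberg and a threshold of 0.05). These are 5.75% and 4.42% of the genes tested, 10.2% in all. Over all count levels together, genes that rose changed by more than genes that fell, while the gap was smaller among genes with many counts (given by bins below). On the log2 scale, where 1 stands for a 2-fold change, the median fold change was 0.77 (quartiles 0.42 to 1.48) among genes that rose and -0.43 (quartiles -0.69 to -0.32) among genes that fell, beside -0.01 over all genes tested. By 2-fold or more, 396 genes were higher and 97 were lower, which are 40.3% of the genes that rose and 12.9% of those that fell (2.32% and 0.568% of the genes tested). By 4-fold or more the counts were 147 and 14, and by 8-fold or more 51 and 4.

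**Figure D1:**
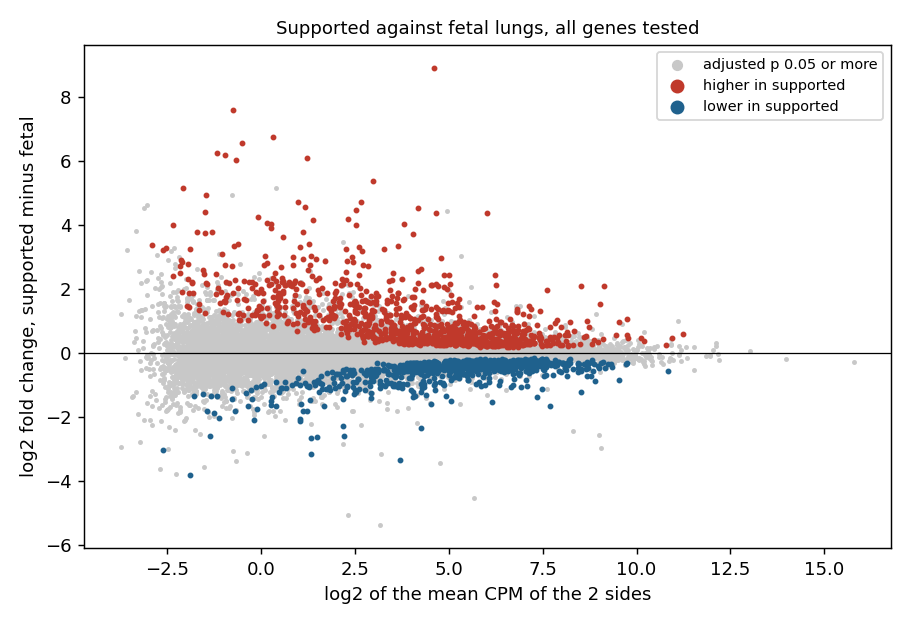
Each point is 1 of the 17069 genes tested, by the log2 of its mean CPM on both sides (x axis) and its log2 fold change, supported minus fetal lungs (y axis); red and blue points are the 982 higher and 754 lower genes, grey points did not pass. Red points reach further from 0 than blue ones, above all at low counts, and some grey points lie far from 0.

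Many genes separated the sides completely. Of the 982 genes that rose, 475 had a higher CPM in each of the 6 supported libraries than in any of the 6 fetal ones, and of the 754 that fell, 316 had a lower one. Over all genes tested, 3.17% were separated upwards and 2.16% downwards in this way. No single library stood nearest to the other side throughout. Among genes that rose, NRS replicate 2 was the lowest supported library for 246 genes and IMV replicate 3 for 225, and fetal end replicate 1 was the highest fetal library for 249 and fetal start replicate 3 for 237. Among genes that fell, fetal end replicate 2 was the lowest fetal library for 242, and NRS replicates 2 and 3 were the highest supported libraries for 200 each.

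Of the genes that rose, 176 had a mean under 1 CPM in fetal lungs, and 120 of these reached 1 CPM or more with support. The lower quartile of mean fetal CPM was 2.20 among genes that rose and 2.85 over all genes tested. How many of all genes tested lay under 1 CPM was not counted, so low fetal levels are not shown to be particular to genes that rose. In 18 of the genes that rose no fetal library had more than 3 counts. Such genes were kept for testing only because other libraries held more counts, so a rise was in practice the one call open to them. The reverse was rarer: 25 genes fell from a mean of at least 1 CPM to under 1 CPM, and 2 had no more than 3 counts in any supported library.

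ENSOARG00000004807 had the largest rise among genes with a mean of at least 1 log2 CPM whose sides did not overlap. It stood at 41.5, 20.1 and 15.7 CPM in IMV replicates 1 to 3 and at 33.8, 47.0 and 49.3 CPM in NRS replicates 1 to 3. It stood at 0.254, 0.552 and 2.59 CPM in fetal start replicates 1 to 3 and at 3.09, 1.85 and 0.455 CPM in fetal end replicates 1 to 3. Every supported library was thus far above the highest fetal one, and the fetal levels rest on few counts (7 to 82 per library). The means were 34.6 ± 14 CPM with support and 1.47 ± 1.2 CPM without (SD, n = 6 each). This is a log2 fold change of 4.54 with an SE of 0.56 (adjusted p = 0.00165 in edgeR), or 23.3-fold. The term libraries stood at 255 and 70.8 CPM.

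ENSOARG00000009626 rose with the smallest p of all genes tested. Its CPM was 22.1, 27.2 and 26.8 in the IMV libraries and 33.3, 28.8 and 48.5 in the NRS libraries. The fetal start libraries had 3.16, 3.50 and 6.12 CPM and the fetal end libraries 6.04, 7.39 and 5.29 CPM. Supported libraries were 1 close group apart from NRS replicate 3, which was the highest, and the youngest fetuses were the lowest. The log2 fold change was 2.57 with an SE of 0.19 (adjusted p = 0.000135 in edgeR), from 5.25 ± 1.64 to 31.1 ± 9.25 CPM (SD, n = 6 each). At 31.6 and 29.2 CPM the term libraries lay within the range of the supported ones.

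ENSOARG00000025904 had the largest fall by the same rule. It stood at 37.3, 60.4 and 53.0 CPM in fetal start replicates 1 to 3 and at 56.0, 45.6 and 43.4 CPM in fetal end replicates 1 to 3. With support it stood at 16.8, 14.1 and 21.0 CPM in the IMV libraries and at 18.8, 14.5 and 18.3 CPM in the NRS libraries. The 2 fetal ages overlapped, as did the 2 kinds of support, while the highest supported library was well below the lowest fetal one. The means were 49.3 ± 8.65 CPM in fetal and 17.2 ± 2.67 CPM in supported lungs (SD, n = 6 each). The log2 fold change was -1.51 with an SE of 0.17 (adjusted p = 0.00115 in edgeR), and the term libraries were lower still at 11.3 and 6.30 CPM.

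ENSOARG00000015902 fell with the smallest p. In fetal lungs it stood at 78.3, 78.4 and 77.8 CPM in the fetal start libraries and 67.2, 88.2 and 79.0 CPM in the fetal end libraries. It stood at 45.9, 40.6 and 37.9 CPM after IMV and at 29.2, 32.6 and 43.0 CPM after NRS. All 6 supported lambs were thus below all 6 fetuses, at means of 38.2 ± 6.33 and 78.2 ± 6.66 CPM (SD, n = 6 each). The log2 fold change was -1.04 with an SE of 0.10 (adjusted p = 0.000535 in edgeR). Term libraries stood at 24.6 and 25.5 CPM, below every supported library.

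**Figure D2:**
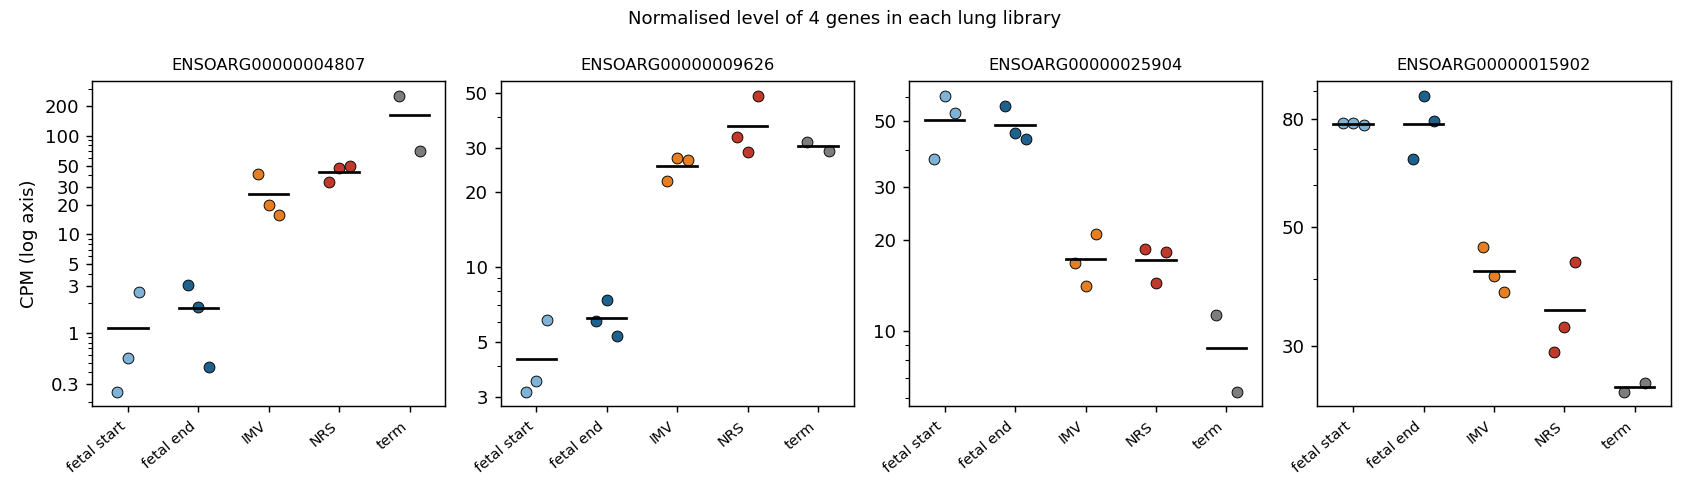
CPM (log axis) of the 4 genes in each library, by group; points are animals and bars are group means (n = 3, and 2 at term). In each panel the 6 supported libraries (IMV and NRS) lie wholly above or wholly below the 6 fetal ones, for example 15.7 to 49.3 against 0.254 to 3.09 CPM for ENSOARG00000004807.

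These 4 genes were chosen for sides that do not overlap, which fixes their direction in any subset of the libraries. They were also chosen for the largest change or the smallest p in the same libraries. The following sizes and p-values are therefore a description and no separate test. In a fit of the 12 libraries with a single mean per side, the log2 fold changes were 4.55, 2.57, -1.52 and -1.03 in the order given above (edgeR adjusted p from 0.000228 to 0.00116). With labelled gestational day added to that fit they were 4.23, 2.38, -1.51 and -1.02 (edgeR adjusted p from 0.00141 to 0.00747). With fetal end alone as the reference they were 4.20, 2.29, -1.49 and -1.04 (edgeR adjusted p from 0.00668 to 0.0282). Leaving out any 1 of the 12 libraries kept all 4 calls, with the largest move in ENSOARG00000004807, whose log2 fold change ran from 4.28 to 5.28.

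The change did not have the same shape at all count levels. Genes were split into 5 bins of equal size by their mean log2 CPM, from bin 1 (lowest) to bin 5, which ranks them by reads counted and not by transcripts, since CPM is not corrected for gene length. The share of genes that rose lay between 4.77% (bin 1) and 6.41% (bin 2), and was 6.30% in bin 5. The share that fell climbed from 1.03% in bin 1 through 3.1%, 4.72% and 5.51% to 7.73% in bin 5, the only bin with more genes falling (264) than rising (215). The median log2 fold change of genes that rose went from 2.15 in bin 1 to 0.40 in bin 5, and that of genes that fell from -1.43 to -0.35. Bins 1 and 2 held 163 and 219 of the genes that rose, and 35 and 106 of those that fell. The medians over all called genes thus mix count levels differently in the 2 directions.

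Precision differed in the same direction. The median SE over genes was 0.447 on the log2 scale in bin 1, where the median gene had 0.555 CPM, and 0.0867 in bin 5, where it had 116 CPM. The smallest change that passed was 0.85 on the log2 scale in bin 1 and 0.17 in bin 5. The median changes seen in bin 5, 0.40 for rises and -0.35 for falls, were thus both smaller than any change that passed in bin 1. Whether precision accounts for the smaller share of falls in bin 1 was not tested.

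**Figure D3:**
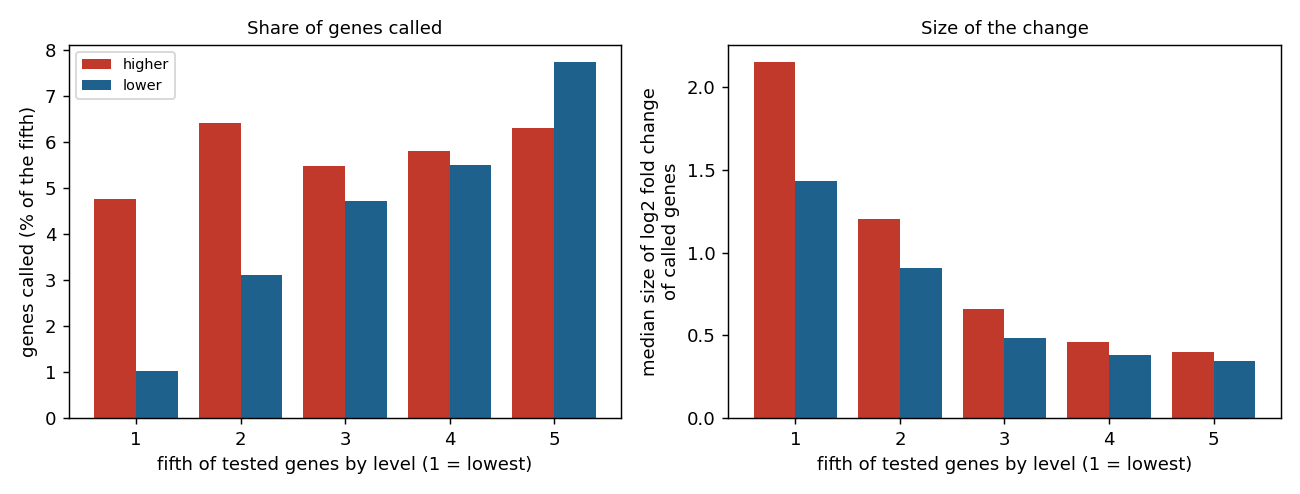
Left, percent of the genes in each bin that were higher (red) or lower (blue) in supported lungs; right, the median size of the log2 fold change of those genes. The x axis ranks the 17069 genes tested by mean log2 CPM, from 1 (lowest) to 5; the blue share climbs from 1.03% to 7.73% while the red share stays between 4.77% and 6.41%.

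The genes that changed hold a modest part of all reads. Genes that rose held 6.76% ± 0.20 of all counts in supported lungs and 4.40% ± 0.39 in fetal lungs (SD, n = 6 each). Genes that fell held 5.08% ± 0.23 and 6.79% ± 0.33. These shares were not tested, since the genes had been chosen for the difference. Scaling factors of the 2 sides overlapped, at 0.9725 to 1.0469 and 0.9633 to 1.0282.

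Each kind of support was then read on its own against the same 6 fetal libraries. For the 982 genes that rose the median log2 fold change was 0.77 after IMV (quartiles 0.43 to 1.40) and 0.73 after NRS (quartiles 0.37 to 1.57). For the 754 that fell it was -0.47 after IMV (quartiles -0.71 to -0.34) and -0.41 after NRS (quartiles -0.68 to -0.27). The 2 comparisons share their fetal libraries, and the genes were chosen on the mean of both, so the like direction is no separate result. Between IMV and NRS directly the median difference was 0.03 (quartiles -0.25 to 0.23) for genes that rose and -0.07 (quartiles -0.18 to 0.08) for genes that fell, beside 0.00 over all genes tested. With edgeR 0 genes passed between IMV and NRS and 1854 (10.9%) had an unadjusted p under 0.05, while DESeq2 called 0.853% of the genes it tested. Among the genes that rose 143 (14.6%) had such a p, and among those that fell 104 (13.8%).

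None of the 4 genes named above passed between IMV and NRS. On the log2 scale the difference, IMV minus NRS, was -0.75 ± 0.64 for ENSOARG00000004807 and -0.54 ± 0.24 for ENSOARG00000009626 (± SE, adjusted p = 0.693 and 0.455 in edgeR). It was 0.01 ± 0.24 for ENSOARG00000025904 and 0.25 ± 0.14 for ENSOARG00000015902 (± SE, adjusted p = 0.991 and 0.540 in edgeR). These errors, from 3 animals a group, do not show that the 2 kinds of support act alike on these genes.

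The response was also read in pairs of comparisons that have no library in common, which the pooled contrast does not fix. The first pair was IMV over fetal start and NRS over fetal end. IMV over fetal start called 364 genes higher (2.13% of those tested) and 278 lower (1.63%). In NRS over fetal end, 342 of the 364 (94.0%) had a positive log2 fold change, where 48.2% of all tested genes did, with a median of 0.51 (quartiles 0.25 to 1.21). Of the 278, 250 (89.9%) had a negative one, where 51.8% of all tested genes did, with a median of -0.24. In the comparison that called these genes the medians were larger, at 1.20 and -0.59.

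The second pair was NRS over fetal start and IMV over fetal end. NRS over fetal start called 282 genes higher (1.65%) and 160 lower (0.937%). In IMV over fetal end, 259 of the 282 (91.8%) were positive, where 49.5% of all tested genes were, and 83.8% of the 160 were negative, where 50.5% were. The medians were 0.75 and -0.26. With each of the 12 libraries left out in turn, the share with the same direction ran from 79.2% to 100% for higher genes and from 72.9% to 100% for lower genes over both pairs, and every median kept its sign. The number of genes called to begin with fell to 4 higher and 1 lower in IMV over fetal start, and to 8 and 4 in NRS over fetal start, without fetal start replicate 2.

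**Figure D4:**
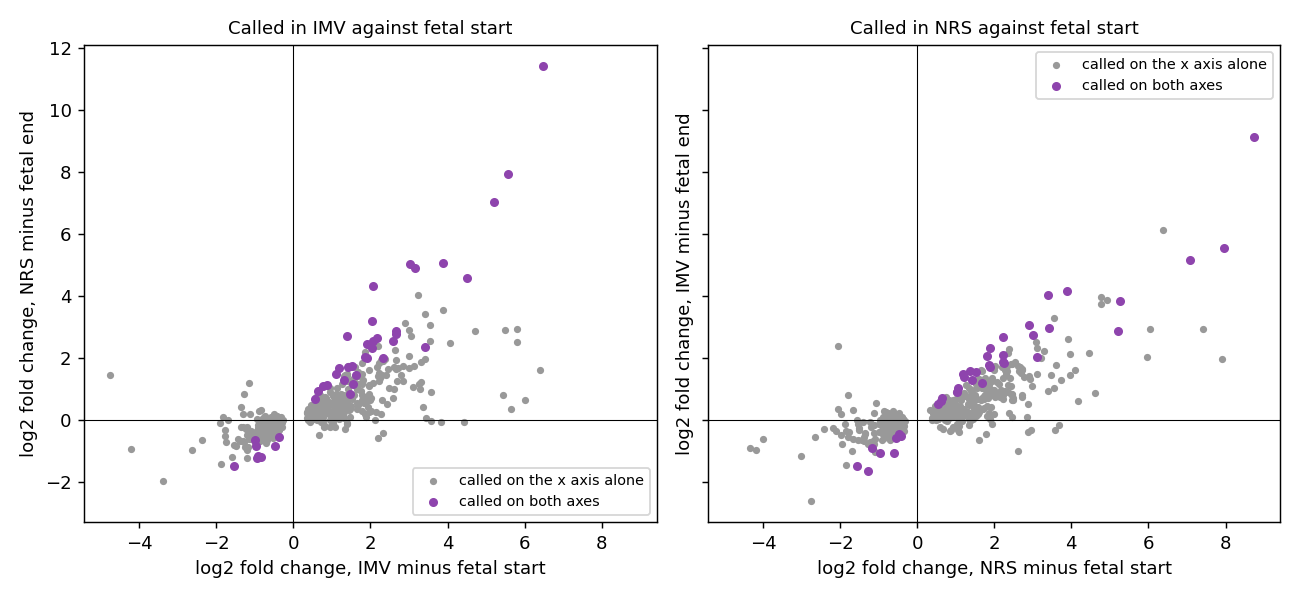
Log2 fold changes of genes called in one comparison (x axis) in a comparison that shares no library with it (y axis): left, the first pair (IMV over fetal start, NRS over fetal end); right, the second pair (NRS over fetal start, IMV over fetal end). Most points lie at the lower left and upper right (342 of 364 higher and 250 of 278 lower genes on the left), closer to 0 on the y axis than on the x axis; purple points passed on both axes.

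Fewer genes passed the test in both comparisons of a pair. In the first pair 33 genes were called higher in both comparisons, 9.07% of the 364 and 63.5% of the 52 called in NRS over fetal end (0.305% of all genes tested). Called lower in both were 8 genes, 2.88% of the 278 and 38.1% of the 21 called in NRS over fetal end (0.123%). In the second pair 30 genes were called higher in both, 10.6% of the 282 and 42.3% of the 71 called in IMV over fetal end (0.416%). Called lower in both were 8 genes, 5% of the 160 and 17.4% of the 46 called in IMV over fetal end (0.269%). These numbers moved by over 1.5 times with nearly every library: the first pair shared from 2 higher genes (without fetal start replicate 2 or fetal end replicate 1 or 3) to 60 (without fetal start replicate 3), and the second from 0 (without IMV replicate 1 or fetal end replicate 1 or 3) to 53 (without fetal start replicate 3).

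Pooling brought in genes that no comparison of 3 against 3 animals called. Of the 982 higher genes 522 passed in none of the 4 single comparisons, and of the 754 lower genes 424 passed in none. Conversely 61 genes called higher and 67 called lower in at least 1 single comparison did not pass in the pooled one. Of the pooled genes 440 higher and 286 lower ones reached an unadjusted p under 0.05 in the same direction in all 4 single comparisons. Over all 17069 genes tested 443 and 287 did so. The pooled contrast is the mean of these 4 comparisons on the same libraries, so this overlap is no separate result.

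The fetal side spans gd127 to gd136, so the same genes could be read across age without support. From fetal start to fetal end the median difference of the 982 genes that rose with support was 0.11 on the log2 scale (quartiles -0.04 to 0.39) and that of the 754 that fell was -0.08 (quartiles -0.20 to 0.03), beside 0.00 over all genes tested. The difference was positive for 68.4% of the 982 and 30.2% of the 754, where 50.7% of all tested genes were positive. In the supported comparison, which shares these fetal libraries, the medians of the 982 and 754 genes were 0.77 and -0.43. That comparison chose the genes, which can enlarge its medians, so the sizes across age and with support cannot be set against each other. Between the fetal ages 1 of the 17069 genes passed (0.00586%), which was not among the 982 or 754, and DESeq2 called 122. At an unadjusted p under 0.05 there were 1321 (7.74%), with 100 of the 982 (10.2%) and 88 of the 754 (11.7%) among them.

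All 6 supported lambs are labelled gd134, so an effect of day can be estimated from the 6 fetuses alone. To allow for age within this limit, labelled gestational day was added to a fit of the 12 libraries with a single mean per side, which tested 15817 genes. Without day that fit called 934 genes higher and 665 lower, and with day 467 and 279, of which 443 and 251 were among the 982 and 754. The medians of those of the 982 and 754 genes that it tested were 0.73 and -0.43 without day and 0.69 and -0.41 with it. With the day read from the fetal animal identifier, which swaps gd135 and gd134 between fetal end replicates 1 and 2, the counts were 443 and 259. Against fetal end alone 105 genes were higher and 79 lower, while the medians of the 982 and 754 genes were 0.66 and -0.40. Against fetal start alone 593 were higher and 565 lower, and the medians were 0.84 and -0.47. Without the 2 youngest fetuses 130 were higher and 107 lower, and the medians were 0.72 and -0.39. The 982 and 754 genes were chosen on all of these libraries, so their medians are a description. Those reference groups have 3, 3 and 4 fetuses instead of 6, and the part of the smaller number of animals in these counts was not tested.

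Animals were also set apart by the last number of their identifiers, whose meaning the labels do not give. It was 17 or 18 for IMV and fetal start, 18 for NRS and 19 for all fetal end lambs, so for fetal end it cannot be told apart from the group. Among lambs ending in 18 (4 supported, and 2 fetal that are both fetal start) the medians of the 982 and 754 genes were 0.87 and -0.48. In this subset 1 gene was called higher, which was not among the 982, and 1 lower, which was among the 754. Lambs ending in 17 are 2 supported and 1 fetal, too few for a test to inform, and their medians were 0.78 and -0.45. These genes, and the 4 named ones, were chosen on libraries that include these lambs. Their direction within each subset is therefore no separate result. The log2 fold changes among lambs ending in 18 and in 17 were 4.53 and 6.89 for ENSOARG00000004807, 2.83 and 2.96 for ENSOARG00000009626, -1.65 and -1.27 for ENSOARG00000025904 and -1.14 and -0.86 for ENSOARG00000015902. None of the 4 passed among lambs ending in 18 (edgeR adjusted p from 0.103 to 0.161). With identifiers ending in 17 as a covariate in the full comparison, 689 genes were higher and 487 lower.

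Each animal was placed on the fetal-to-supported difference by genes that had been called without it. The placement is the mean log2 CPM of the higher genes minus that of the lower genes, scaled so that the other fetal libraries have a mean of 0 and the other supported libraries a mean of 100. IMV replicates 1 to 3 stood at 94.4, 88.9 and 78.9 and NRS replicates 1 to 3 at 95.5, 70.2 and 90.5. Fetal start replicates 1 to 3 stood at 8.88, -28.1 and 29.7 and fetal end replicates 1 to 3 at 27.4, 40.4 and 3.51.

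All 6 supported lambs thus lay above all 6 fetal ones, and IMV and NRS overlapped, with means of 87.4 ± 7.86 and 85.4 ± 13.4 (SD, n = 3 each). Means were 3.49 ± 29.3 for fetal start and 23.8 ± 18.7 for fetal end (SD, n = 3 each). The order of single fetuses was not strictly that of their labelled ages. The oldest, fetal end replicate 3 at gd136, stood below fetal start replicate 3 at gd131. A link of placement to age was not tested. The fetuses had an SD of 24.6 and the supported lambs of 9.87 (n = 6 each). Labelled ages differ among the fetuses, within each fetal group too, while all supported lambs carry gd134. By the median over genes, single genes were also more spread in fetal lungs. Neither difference in spread was tested, and a part of fetal age in them cannot be told apart. Within groups the median SD of log2 CPM over all genes tested was 0.256 in fetal and 0.227 in supported lungs, and the SD was larger in supported lungs for 42.0% of genes. For genes that rose that share was 41.3% and for genes that fell 38.3%.

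**Figure D5:**
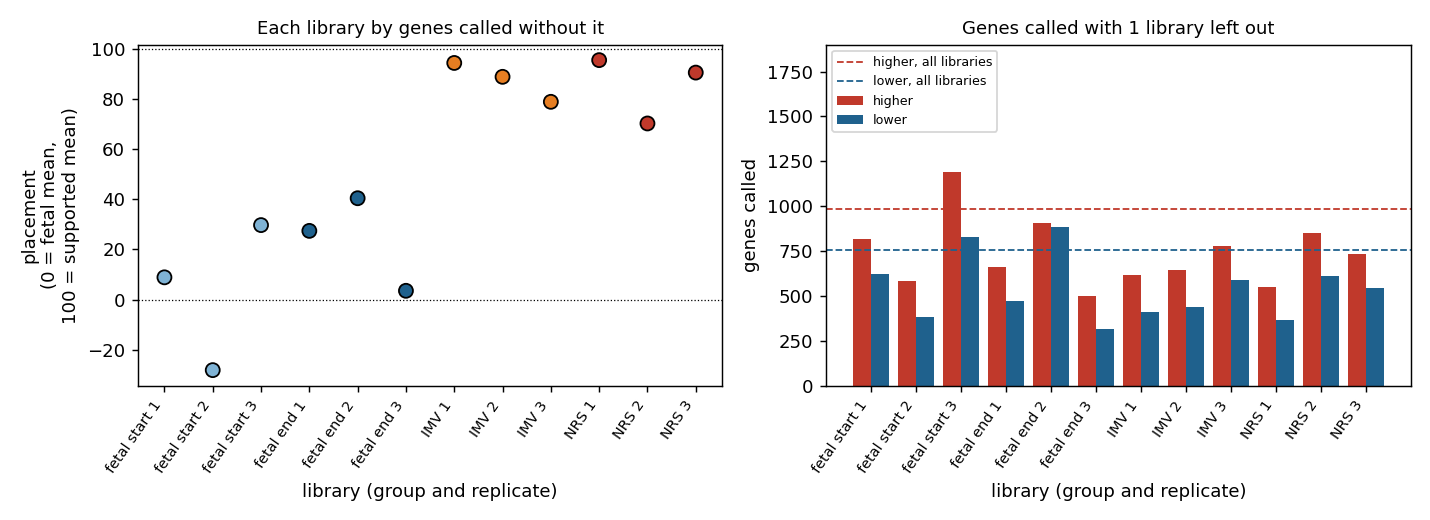
Left, placement of each library by genes called without it, where 0 is the mean of the other fetal and 100 the mean of the other supported libraries; right, genes called higher (red) and lower (blue) when that library is left out, with dashed lines at 982 and 754 for all libraries. Supported libraries stand at 70.2 to 95.5 and fetal ones at -28.1 to 40.4, and the counts run from 497 and 315 (without fetal end replicate 3) to 1190 higher (without fetal start replicate 3) and 886 lower (without fetal end replicate 2).

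Over the 12 fits with 1 library left out, the median of the 982 genes ran from 0.74 to 0.81. That of the 754 genes ran from -0.46 to -0.39. These genes were chosen on all 12 libraries, so the medians are a description. The number of called genes depended on single animals. The number fell by over 1.5 times in both directions without IMV replicate 1 (619 higher, 412 lower), IMV replicate 2 (646 and 436), NRS replicate 1 (549 and 365), fetal start replicate 2 (581 and 385) or fetal end replicate 3 (497 and 315), and in lower genes without fetal end replicate 1 (469). Of the 17069 genes tested, a core of 426 higher (43.4% of 982) and 262 lower genes (34.7% of 754) was called whichever library was left out. The median log2 fold change in the core was 1.09 for higher and -0.53 for lower genes. The core keeps the stronger calls from largely the same libraries, so its larger medians can follow from the choice alone.

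Term lungs give a reference level for the same genes. Against the same 6 fetal libraries the 982 genes that rose with support stood at a median of 0.76 at term on the log2 scale (quartiles 0.42 to 1.61), beside 0.77 with support. The 754 genes that fell had a median of -0.46 at term (quartiles -0.77 to -0.26), beside -0.43. Over all genes the term median was -0.01. The term group has 2 animals and shares all 6 fetal libraries with the comparison that chose these genes. The choice of genes alone can therefore move the term medians away from 0 in the same direction, and how far was not tested.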

How the data were processed

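The deposited values are raw read counts per gene, which the authors left unnormalized: 14 libraries made with a stranded total RNA kit, per the labels' protocols, and 27054 Ensembl identifiers. Tools listed in the submitters' processing notes, without roles, are STAR 2.7.0f, featureCounts 1.6.3 (Subread), cutadapt 1.16, bcl2fastq and DESeq2 1.22.2, on build Oar_v3.1. How strand, shared and overlapping matches were counted was not given in the sources used here, so overlapping, antisense and near-identical copies are uncertain. The reference table (ARS-UI_Ramb_v3.0) pairs 0 of its 35057 rows with Ensembl identifiers. Hence 0 genes could be named, and 16 prepared gene lists and cell type markers went unused.

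The test was edgeR 4.0.16 in R 4.3.3 (quasi-likelihood, TMM scaling). The 14 libraries entered 1 fit with 5 group means (9 residual degrees of freedom). The contrast was the mean of IMV and NRS minus the mean of fetal start and fetal end. The filterByExpr filter (count minimum 10) kept 17069 genes with 99.97% of counts, over which p-values were adjusted. Log2 CPM adds a prior count of 2. Totals of 23267448 to 31586235 counts set the precision. Replicates differed by more than sampling noise. The procedure was tested on simulated data.

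Named genes have the largest change or the smallest p, in each direction, among called genes whose mean log2 CPM reached 1 and whose sides did not overlap. The groups, rules and lists were chosen with earlier results of these data known. Alternatives were DESeq2 1.42.0, other scaling, filters, libraries, references and covariates, and each library left out. The on-off covariate, subsets by identifier, removal of the 2 youngest fetuses and the rule of 4 single comparisons were chosen after seeing the data.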

Additional observations from a re-analysis of the deposited data

How the results depend on the processing

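The 4 named genes passed under all 28 alternatives except the 2 subsets by identifier. Their direction was fixed by their choice, and they were also chosen for size or p in the same libraries. Genes called higher and lower in supported lungs were 1597 and 1346 with DESeq2 (967 and 752 shared with the 982 and 754) and 1479 and 1149 with a covariate taken from 3 of 61 genes that were near 0 in some libraries and clearly present in the rest. The 3 genes share 1 split of the libraries, which puts all 3 IMV libraries and 4 fetal ones on one side and all 3 NRS libraries on the other. With a single mean per side they were 467 and 279 with labelled day and 443 and 259 with the identifier's day, against 934 and 665 without. They were 105 and 79 against fetal end alone, 593 and 565 against fetal start alone, and 130 and 107 without the 2 youngest fetuses. They were 689 and 487 with identifiers ending in 17 as a covariate, 1 and 1 in lambs ending in 18, 0 and 0 in the 3 lambs ending in 17, where a test informs little, and 443 and 287 by an unadjusted p in all 4 single comparisons. Leaving out 1 library gave 497 to 1190 higher and 315 to 886 lower genes. RLE scaling, either other filter, only the 12 libraries and 2 pooled means kept both counts within 1.5 times.

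Genes called in both comparisons of the first pair (IMV over fetal start, NRS over fetal end) were 224 higher and 91 lower with DESeq2, 51 higher with only the 12 libraries, 6 and 4 with the identifier covariate, and 2 to 60 higher and 0 to 13 lower with 1 library left out. For the second pair they were 240 and 130 with DESeq2, 17 lower with a mean of at least 1 CPM, 0 and 1 with the identifier covariate, and 0 to 53 and 0 to 17 with 1 library left out. Between IMV and NRS, DESeq2 called 0.853% of the genes it tested, and leaving out 1 library gave 0% to 0.0118%. Between the fetal ages DESeq2 called 122 genes, leaving out 1 library gave 0 to 5, and 0 passed with only the 12 libraries or with the identifier covariate. The difference in genes detected, 77.8 more in supported lungs, turned to -134.7 against fetal end alone (exact permutation p = 0.488) and was 290.3 against fetal start alone (exact permutation p = 0.0952). It ran from 6.60 to 163 with 1 library left out, and the difference in the share of the top 100 genes from -1.32 to -0.601 percentage points. That share differed by -0.413 points against fetal end alone and by -1.43 against fetal start alone (exact permutation p = 0.667 and 0.0833). The cause of these moves was not tested.

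With the replicate number as a block 748 genes were higher and 554 lower, genes called in both comparisons were 7 and 2 in the first pair and 1 and 1 in the second, and 0 genes passed between the fetal ages. Between libraries with the same number, deviations from the group means had correlations from -0.15 to 0.29 over 18 pairs, and 3 were over 0.1. Libraries with different numbers were not compared in this way, so whether the replicate numbers pair samples was not tested. Depth limits genes with few counts most, as given for bin 1.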
